A study of Homo sapiens with 66 samples.

Results

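The transcript response of AMO1 cells to 6 h of NCP26 was measured in 3 NCP26 libraries and 3 DMSO libraries, 6 of the 66 RNA sequencing libraries of the study. AMO1 is an established human multiple myeloma line, a tumour of plasma cells, and the line used here is labelled wild type. NCP26 is an ATP-competitive inhibitor of prolyl-tRNA synthetase and was given at 1 µM. DMSO was its solvent control. All genes of the count table were considered, and 10666 of 20167 genes had enough counts to be tested. Beside these, 4 other groups of 3 libraries were compared and served only to place the response. They were AMO1 cells given 1 µM NCP22, the earlier inhibitor from which NCP26 was developed, AMO1 cells given 1 µM halofuginone (HFG), a febrifugine derivative that inhibits the same enzyme, and L363-CFZr cells, a carfilzomib-resistant myeloma line, given 1 µM NCP26 or DMSO, all for 6 h. AMO1 cells given carfilzomib, a proteasome inhibitor, or 1 µM of the halofuginone analogue halofuginol for 6 h were not compared. They entered only an alternative fit of all AMO1 libraries of 6 h. Each line is a single cultured line. The methods of the study state that each condition of the RNA sequencing was run in triplicate, and they speak of biological triplicates in general. Neither they nor the labels say whether these libraries came from separate cultures. The p-values therefore measure only the spread between these samples, which may be technical.

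Prolyl-tRNA synthetase joins proline to its tRNA, and in human cells the cytosolic enzyme is one part of the fused protein encoded by EPRS1. When a tRNA stays uncharged, the kinase GCN2 (gene EIF2AK4) can phosphorylate the initiation factor eIF2, which lowers general translation and favours translation of the transcription factor ATF4. ATF4 and its partners then raise genes for amino acid uptake and synthesis, tRNA charging, redox balance and, under lasting stress, cell death. This programme is the integrated stress response (ISR). Plasma cells secrete large amounts of protein, and their identity depends on transcription factors such as IRF4, PRDM1 and XBP1.

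The 6 libraries held 2500293 to 3183765 counts. NCP26 replicate 1 stood apart. It had the lowest total but 15581 detected genes, against 13248 to 13636 in the other 5, and 1419 genes were counted in it alone among the 6, with 0.0920% of its counts. Its counts differed from the other NCP26 libraries by 7.86 and 8.36 times Poisson noise, whereas NCP26 replicates 2 and 3 differed by 3.46 times and DMSO replicates by 1.83 to 2.76 times. Results that changed strongly without this library are given with and without it. All 10 plasma cell markers were measured, with a summed level of 10429 to 10772 CPM (counts scaled to library size) with DMSO and 5168 to 5522 CPM with NCP26. Markers of mature B cells, T and NK cells, myeloid, stromal and erythroid cells summed to at most 8.22 CPM per library in any list, and 0 of them passed the count filter. In bulk RNA, fewer cells of a kind and less RNA per cell cannot be told apart.

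After 6 h of NCP26, ISR genes, replication-dependent histone genes and AP-1 genes were higher, and genes of the hypoxia response, glycolysis, heat shock chaperones and tubulins were lower, as were 7 of 10 plasma cell markers. With edgeR's quasi-likelihood test and Benjamini-Hochberg adjustment, 3975 of 10666 genes passed an adjusted p of 0.05 (37.3%), 1932 higher (18.1%) and 2043 lower (19.2%). A called gene below means one of these. The values of the groups did not overlap in 5235 genes (49.1%). The median absolute log2 fold change of called genes was 0.61, and 590 genes changed at least 2-fold, 353 higher and 237 lower. At least 4-fold changes were found in 52 genes, 36 higher and 16 lower. Since so large a share of all genes was called, gene groups are described by their counts beside these background shares, with no test of the group.

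Genes that ATF4 and its partners are known to induce were mostly higher. Among these ISR targets, 29 of the 39 tested members were higher and 4 were lower, with a median log2 fold change of 0.74, against 18.1% higher among all genes. ATF3, a stress-induced transcription factor at chr1:212565334-212620777 (GENCODE v44, GRCh38, as for all gene positions here), had 16.7, 15.2 and 12.5 CPM with DMSO and 98.1, 113 and 126 CPM with NCP26. Every NCP26 library lay above every DMSO library (log2 fold change 2.92 ± 0.15 SE, adjusted p = 5.1e-08). DDIT3 encodes CHOP, the ISR factor linked to cell death, and had 81.2, 79.3 and 75.2 CPM with DMSO and 314, 268 and 275 CPM with NCP26, also without overlap (log2 fold change 1.86 ± 0.10 SE, adjusted p = 1.4e-07). TRIB3, a pseudokinase that feeds back on ATF4, had 115, 102 and 117 CPM with DMSO and 323, 307 and 308 CPM with NCP26 (log2 fold change 1.49 ± 0.10 SE, adjusted p = 7.0e-07). The groups did not overlap in TRIB3, nor in INHBE, an activin subunit and ISR marker, with 35.4, 32.2 and 35.8 CPM with DMSO and 103, 123 and 126 CPM with NCP26 (log2 fold change 1.77 ± 0.12 SE, adjusted p = 7.0e-07).

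SLC7A11, the cystine importer, rose by the second largest amount in the group, with 10.7, 7.79 and 12.2 CPM with DMSO and 47.2, 55.4 and 48.5 CPM with NCP26 (log2 fold change 2.30 ± 0.17 SE, adjusted p = 1.7e-06). STC2, a secreted stanniocalcin, had 16.7, 10.3 and 10.4 CPM with DMSO and 46, 58.6 and 51.8 CPM with NCP26 (log2 fold change 2.06 ± 0.19 SE, adjusted p = 8.7e-06). Both genes were separated between the groups in every library. The transcription factors CEBPB (1.56) and CEBPG (1.36), both dimer partners of ATF4, were higher on the log2 fold change scale, as was PPP1R15A (1.22), which encodes the GADD34 subunit that helps to dephosphorylate eIF2. Genes of amino acid synthesis rose less. ASNS, asparagine synthetase, had 135, 135 and 135 CPM with DMSO and 261, 247 and 253 CPM with NCP26 (log2 fold change 0.91 ± 0.09 SE, adjusted p = 1.9e-05), and its DMSO libraries were within 1 CPM of each other. PSAT1, an enzyme of serine synthesis, had 106, 109 and 119.7 CPM with DMSO and 231, 232 and 256 CPM with NCP26 (log2 fold change 1.10 ± 0.10 SE, adjusted p = 8.4e-06). CHAC1, which degrades glutathione, was low at 14.4, 11.7 and 11.1 CPM with DMSO and 19.2, 20.4 and 20.8 CPM with NCP26 (log2 fold change 0.70 ± 0.18 SE, adjusted p = 0.0082). SLC7A5 (0.15, adjusted p = 0.35), MTHFD2 (0.15, adjusted p = 0.25) and SLC38A2 (0.10, adjusted p = 0.55) were not called, with log2 fold changes near 0. Without NCP26 replicate 1 the first of these passed the test (log2 fold change 0.29), and MTHFD2 did as well (0.22). With the GC content offset SLC7A5 passed (0.41, adjusted p = 0.015), and MTHFD2 (-0.06) and SLC38A2 (-0.19) turned sign without a call.

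Among the ISR targets 4 members were lower. NDRG1 (log2 fold change -2.02), DDIT4 (-0.97) and HMOX1 (-1.70) are also known to be induced by hypoxia (the first pair) or by NRF2 (HMOX1), and ATF5 (-0.38) is a transcription factor. ATF4 itself, which is controlled mainly by translation, had 513, 515 and 479 CPM with DMSO and 467, 393 and 438 CPM with NCP26. Its NCP26 libraries were all below its DMSO libraries, but the difference did not pass (log2 fold change -0.22 ± 0.10 SE, adjusted p = 0.11), and it did without NCP26 replicate 1 (log2 fold change -0.25, adjusted p = 0.022). Of 25 tested ISR kinases and regulators, 10 were higher and 4 lower, against 18.1% and 19.2% of all genes. The GCN2 gene EIF2AK4 had 49.8, 48.9 and 45.9 CPM with DMSO and 40.8, 51.3 and 51.8 CPM with NCP26 (log2 fold change 0.00 ± 0.12 SE, adjusted p = 1), and the groups overlapped. IMPACT, an inhibitor of GCN2 activation, was higher (log2 fold change 0.94), and GCN1, which GCN2 needs for its activation, was lower (-0.63). The 4 lower regulators were 2 without DMSO replicate 2.

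The letters TGATGNAA, the core of the C/EBP and ATF response element, were searched on both strands in the 250 bases before the RefSeq start. They were found in 3 of the 29 tested ISR targets with a RefSeq promoter (10.3%), against 1.28% of 8667 tested genes and 3.19% of all 27305 promoters. These 3 windows are shown because they hold the letters in genes described above. The windows are 160 bases long, are written 5′ to 3′ on the strand of the gene, and have the matching letters in capitals, on whichever strand they matched. They are from RefSeq, GRCh38.p14, at chr1:212565157-212565316 on the plus strand, chr7:97872409-97872568 on the minus strand and chr15:40953221-40953380 on the plus strand.
ATF3: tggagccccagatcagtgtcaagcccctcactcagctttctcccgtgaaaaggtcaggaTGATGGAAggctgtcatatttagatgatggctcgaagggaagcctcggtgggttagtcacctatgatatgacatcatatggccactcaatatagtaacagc
ASNS: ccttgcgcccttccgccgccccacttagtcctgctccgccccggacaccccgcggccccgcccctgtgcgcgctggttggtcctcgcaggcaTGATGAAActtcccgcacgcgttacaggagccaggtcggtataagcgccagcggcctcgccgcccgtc
CHAC1: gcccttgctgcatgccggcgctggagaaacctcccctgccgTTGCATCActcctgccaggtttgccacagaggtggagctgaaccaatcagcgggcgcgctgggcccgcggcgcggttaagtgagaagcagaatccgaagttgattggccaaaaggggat
A match is a description of the letters, and the data hold no measurement of binding.

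Genes of proline metabolism and tRNA charging moved unevenly. The list of proline synthesis and prolyl-tRNA synthetase genes also holds other proline genes, such as P4HA1 and P4HA2. Of its 17 tested members, 2 were higher and 5 were lower, with a median log2 fold change of -0.02. The shares among all genes were 18.1% higher and 19.2% lower. EPRS1, which encodes the enzyme that NCP26 inhibits, had 310.4, 329 and 339 CPM with DMSO and 365, 426 and 403 CPM with NCP26 (log2 fold change 0.29 ± 0.10 SE, adjusted p = 0.039). Its groups did not overlap, but the call was lost under 10 of 15 alternatives, with GC content offset (0.12, adjusted p = 0.30) and without DMSO replicate 1 (0.25, adjusted p = 0.16) among them. Without NCP26 replicate 1 the log2 fold change of EPRS1 was 0.38 (adjusted p = 0.0018). PARS2, the mitochondrial prolyl-tRNA synthetase, had 7.02, 11 and 7.17 CPM with DMSO and 9.21, 7.2 and 6.93 CPM with NCP26 (log2 fold change -0.12 ± 0.27 SE, adjusted p = 0.76). ALDH18A1, the first enzyme of proline synthesis from glutamate, fell (log2 fold change -0.70 ± 0.10 SE, adjusted p = 3.0e-04), and so did OAT (-0.61), which makes the same intermediate from ornithine, and P4HA1 (-0.69) and P4HA2 (-0.90), which hydroxylate proline in collagen. PYCR1, the last enzyme of the path, was at -0.02 (adjusted p = 0.91), and with the GC content offset its sign turned (0.27). The 5 lower members were 3 without DMSO replicate 1.

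Other cytosolic aminoacyl-tRNA synthetases had a median log2 fold change of 0.16. Of the 19, 8 were higher and 3 lower, with GARS1 (0.83), AARS1 (0.78) and CARS1 (0.77), for glycine, alanine and cysteine, highest, and FARSA (-0.95), for phenylalanine, lowest. Among mitochondrial synthetases 0 of 16 were higher and 5 lower, 3 without DMSO replicate 2. Over all genes, 18.1% were higher and 19.2% lower. Among amino acid transporters, 11 of the 20 tested members were higher and 2 were lower, with a median log2 fold change of 0.45. SLC3A2, the heavy chain shared by several of them, rose (log2 fold change 0.998 ± 0.10 SE, adjusted p = 1.6e-05), and SLC6A9, the glycine transporter, had 20.7, 18.4 and 12.9 CPM with DMSO and 40.4, 43.5 and 53.1 CPM with NCP26 (log2 fold change 1.40 ± 0.18 SE, adjusted p = 1.0e-04). SLC38A5 (-0.92) and SLC7A6 (-0.66) fell.

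All 14 replication-dependent histone genes that were matched and could be tested were higher, against 18.1% of all genes. These genes encode the bulk of nucleosomal histones, and their mRNAs normally end in a stem-loop without a poly(A) tail. Poly(A) selection therefore favours their polyadenylated transcripts, and the tails of the counted transcripts were not measured. The list names 63 genes, 27 were matched by name to identifiers of the count table, and 13 of these did not pass the count filter. That filter passes a gene with enough counts in a single group. H1-4 and H1-3, low with DMSO, entered through their NCP26 libraries, so their direction was not independent of the filter. Identifiers without a GENCODE v44 name could not be matched to the list. The median log2 fold change was 2.54. H2BC11 at chr6:27125897-27132795, encoding histone H2B, had 8.35, 9.21 and 12.5 CPM with DMSO and 149.7, 142 and 148 CPM with NCP26 and did not overlap (log2 fold change 3.87 ± 0.14 SE, adjusted p = 9.6e-09). H2AC6, encoding histone H2A, had 68.8, 74.4 and 70.6 CPM with DMSO and 574, 444 and 449.9 CPM with NCP26 (log2 fold change 2.78 ± 0.13 SE, adjusted p = 2.8e-08). NCP26 replicate 1 was the highest library of H2AC6. The linker histone gene H1-4 was low at 1.002, 0.354 and 0.358 CPM with DMSO and 11.6, 3.76 and 11.2 CPM with NCP26 (log2 fold change 3.81 ± 0.61 SE, adjusted p = 4.7e-04), and H1-3, another linker histone gene, had 1.002, 0.354 and 0.358 CPM with DMSO and 8.01, 5.01 and 4.29 CPM with NCP26 (log2 fold change 3.19 ± 0.52 SE, adjusted p = 5.3e-04). H2BC12 and H3C4 share 71.5% and 96.6% of their 31-mers with other genes, so their counts are uncertain. Summed over the 14 genes, the level was 358, 401 and 377 CPM with DMSO and 1811, 1441 and 1448 CPM with NCP26. The shares among all genes were 18.1% higher and 19.2% lower. Among 20 genes for histone mRNA processing and replication-independent histones, 4 were higher, 2 without DMSO replicate 1 or 2, and 7 lower. H3-3B (1.10) and H1-10 (1.10), histone genes with ordinary poly(A) tails, were among the higher ones, and SLBP (-0.48), which binds the stem-loop, was among the lower.

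The octamer ATTTGCAT, the site recognised by POU2F factors, lay in 8 of the 14 windows (57.1%), against 1.27% of tested genes and 1.66% of all promoters, searched on both strands. The 3 windows below are from genes with large fold changes, with 1 window shown of any that overlap, and the capitals mark the octamer. The fold change of H3C4 is uncertain, as stated above. They lie at chr6:27132796-27132955 on the minus strand, chr6:26123962-26124121 on the plus strand and chr6:26199333-26199492 on the minus strand of GRCh38.p14 in RefSeq. H2AC11 and H2BC4 are neighbours whose windows share 157 and 152 bases with those of H2BC11 and H2AC6, so 8 of 14 does not count separate sequences.
H2BC11: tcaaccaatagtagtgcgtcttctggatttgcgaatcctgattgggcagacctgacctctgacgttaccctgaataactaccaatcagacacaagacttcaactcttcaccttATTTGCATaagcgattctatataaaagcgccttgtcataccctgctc
H2AC6: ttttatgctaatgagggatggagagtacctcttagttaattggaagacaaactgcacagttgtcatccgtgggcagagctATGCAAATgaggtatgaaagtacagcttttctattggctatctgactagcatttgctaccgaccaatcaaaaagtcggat
H3C4: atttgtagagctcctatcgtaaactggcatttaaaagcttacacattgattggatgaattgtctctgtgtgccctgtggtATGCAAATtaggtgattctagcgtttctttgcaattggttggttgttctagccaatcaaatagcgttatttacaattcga

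The hypoxia response and glycolysis were lower. Hypoxia genes are targets of HIF1 and include glucose uptake and lactate handling. In the hypoxia list, 1 of the 27 tested members was higher and 20 were lower, with a median log2 fold change of -0.95, and in glycolysis 0 of 23 were higher and 21 lower, with a median log2 fold change of -0.82, against 19.2% lower among all genes. The lists share members such as SLC2A1. HILPDA, a lipid droplet protein at chr7:128455849-128458418, had 91.9, 88.2 and 85.6 CPM with DMSO and 4.8, 9.71 and 6.93 CPM with NCP26 and did not overlap (log2 fold change -3.59 ± 0.17 SE, adjusted p = 5.1e-08). PFKFB4, a kinase that sets the level of fructose 2,6-bisphosphate, had 113, 104 and 108 CPM with DMSO and 12, 12.2 and 17.8 CPM with NCP26 (log2 fold change -2.94 ± 0.14 SE, adjusted p = 5.1e-08). SLC2A1, the GLUT1 glucose transporter, had 69.8, 67.3 and 67.4 CPM with DMSO and 14, 13.5 and 10.6 CPM with NCP26 (log2 fold change -2.43 ± 0.14 SE, adjusted p = 2.0e-07). In these genes every NCP26 library lay far below every DMSO library. HK2, a hexokinase, had 229, 254 and 247 CPM with DMSO and 52.4, 64.5 and 65.4 CPM with NCP26 (log2 fold change -1.99 ± 0.11 SE, adjusted p = 1.3e-07), and PGK1, a phosphoglycerate kinase, had 2420.5, 2513 and 2433 CPM with DMSO and 829, 854 and 819 CPM with NCP26 (log2 fold change -1.56 ± 0.09 SE, adjusted p = 2.3e-07). HIF1A itself was at 0.25 and was not called. VEGFA, a growth factor also among the ISR targets, was the 1 higher hypoxia gene (log2 fold change 0.34).

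The letters ACGTG, the core of the hypoxia response element, lay in 10 of 21 hypoxia genes with a RefSeq promoter (47.6%), against 24.3% of tested genes and 18.7% of all promoters. They lay in 8 of the 16 lower members and in 2 of the 5 not called. The 3 windows shown are from lower genes, with the matches on both strands in capitals, which overlap where the letters read CACGTG. They are at chr4:185396618-185396777, chr2:118088296-118088455 and chr19:4968863-4969022, all on the plus strand in RefSeq GRCh38.p14.
ANKRD37: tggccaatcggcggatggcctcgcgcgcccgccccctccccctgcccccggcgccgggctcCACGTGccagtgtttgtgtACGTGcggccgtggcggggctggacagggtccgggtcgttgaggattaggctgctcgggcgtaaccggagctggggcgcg
INSIG2: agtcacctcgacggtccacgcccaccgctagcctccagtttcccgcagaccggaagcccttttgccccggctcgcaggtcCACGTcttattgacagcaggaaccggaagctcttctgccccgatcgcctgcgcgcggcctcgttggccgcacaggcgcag
KDM4B: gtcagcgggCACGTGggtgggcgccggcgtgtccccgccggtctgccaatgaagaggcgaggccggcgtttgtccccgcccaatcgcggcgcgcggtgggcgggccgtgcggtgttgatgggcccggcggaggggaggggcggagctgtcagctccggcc

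**Figure D1:**
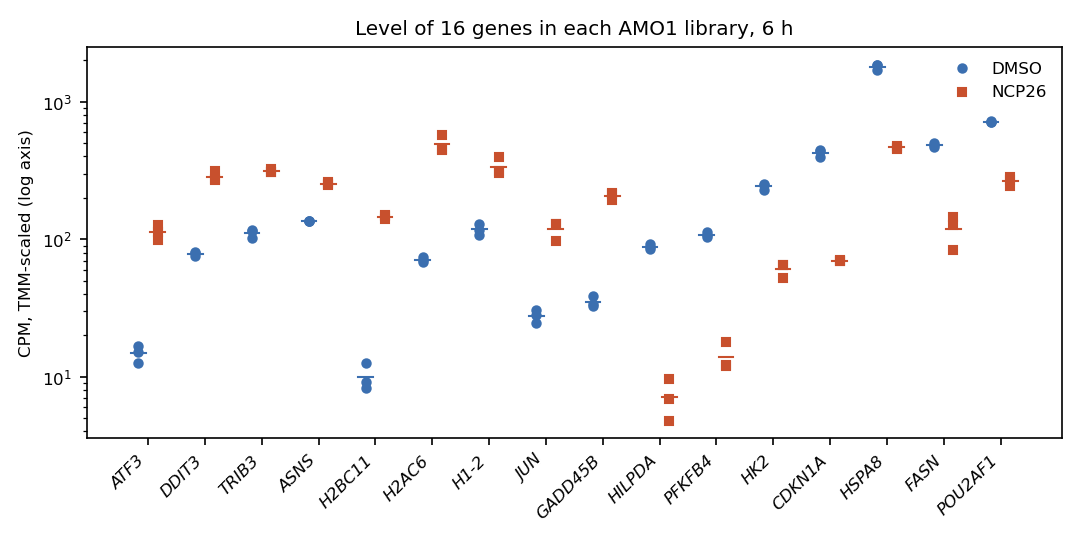
CPM of 16 genes in each library on a log axis. Circles are the 3 DMSO libraries, squares the 3 NCP26 libraries and lines the means. ISR, histone and AP-1 genes lie higher with NCP26, and hypoxia, p53, heat shock, sterol and plasma cell genes lie lower.

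Immediate early genes, which cells switch on within minutes of a stimulus, were often higher. Among these and other AP-1 genes, 18 of the 33 tested members were higher and 5 were lower, with a median log2 fold change of 0.41. The shares among all genes were 18.1% higher and 19.2% lower. JUN, an AP-1 subunit, had 30.4, 24.4 and 27.9 CPM with DMSO and 97.7, 129 and 129 CPM with NCP26 without overlap (log2 fold change 2.10 ± 0.14 SE, adjusted p = 6.9e-07). FOSL2 (1.14, adjusted p = 1.0e-03), EGR1 (1.23, adjusted p = 0.0046) and NR4A3 (1.73, adjusted p = 0.0029) rose, while FOS (0.41, adjusted p = 0.22) was not called. EGR1 was low with DMSO, at 3.34, 4.25 and 4.30 CPM, and passed the count filter through its NCP26 libraries. GADD45B, a stress-induced gene, had 38.4, 32.9 and 33.7 CPM with DMSO and 213, 193 and 216 CPM with NCP26 (log2 fold change 2.56 ± 0.11 SE, adjusted p = 1.6e-08). KLF2, a zinc finger factor, was lower (log2 fold change -1.47 ± 0.19 SE, adjusted p = 1.0e-04), and the 5 lower genes were 3 without DMSO replicate 1, DMSO replicate 3 or NCP26 replicate 2. NF-kB subunits and feedback targets were higher in 10 of 22 and lower in 3, with NFKBIZ (1.84), BCL3 (1.40), REL (1.07) and RELB (1.02) at the top.

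Genes that p53 is known to induce were mostly lower. Among p53 targets, 4 of the 28 tested members were higher and 15 were lower, with a median log2 fold change of -0.42. The shares among all genes were 18.1% higher and 19.2% lower. CDKN1A, which encodes the p21 inhibitor of cyclin-dependent kinases and lies at chr6:36676460-36687337, had 446, 438 and 395 CPM with DMSO and 69.3, 70.1 and 69.6 CPM with NCP26 (log2 fold change -2.61 ± 0.10 SE, adjusted p = 1.3e-08). Its 3 NCP26 libraries agreed within 1 CPM and lay far from the DMSO libraries. MDM2, which degrades p53, had 563, 522 and 596 CPM with DMSO and 268, 256 and 245 CPM with NCP26 (log2 fold change -1.13 ± 0.10 SE, adjusted p = 7.4e-06), and BAX, an effector of apoptosis, had 103, 113 and 86.7 CPM with DMSO and 50.8, 48.8 and 51.5 CPM with NCP26 (log2 fold change -1.001 ± 0.12 SE, adjusted p = 6.3e-05). Of the 4 that were higher, PMAIP1 (log2 fold change 1.23 ± 0.14 SE, adjusted p = 5.5e-05), encoding NOXA, SESN2 (0.74) and GADD45B also respond to other stresses, and MDM4 (0.74) is a p53 inhibitor.

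Among BCL2 family and death receptor genes 11 of 33 were higher and 4 lower, against 18.1% and 19.2% of all genes. The higher count fell to between 6 and 7 without DMSO replicate 1 (6), DMSO replicate 2 (7), NCP26 replicate 2 (7) or NCP26 replicate 3 (6). The lower count was 2 without DMSO replicate 1, DMSO replicate 2 or NCP26 replicate 2. BCL2L11, encoding BIM, fell (log2 fold change -0.79 ± 0.10 SE, adjusted p = 7.5e-05), and HRK, another BH3-only gene, was low at 3.34, 0.354 and 3.58 CPM with DMSO and 10.01, 7.83 and 10.6 CPM with NCP26 (log2 fold change 1.93 ± 0.43 SE, adjusted p = 0.0039). HRK passed the count filter through its NCP26 libraries, so its direction was not independent of that filter. MCL1, the main survival protein of plasma cells, had 1308, 1361 and 1533 CPM with DMSO and 1210.1, 1446 and 1294 CPM with NCP26 (log2 fold change -0.09 ± 0.11 SE, adjusted p = 0.54), and its groups overlapped.

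Cell cycle genes were more often lower than higher. Of all genes, 18.1% were higher and 19.2% lower. In G1/S genes 4 of 51 were higher and 23 lower (median log2 fold change -0.25), and in G2/M genes 3 of 49 were higher and 23 lower (-0.33). MCM5, of the replicative helicase, had 166, 164 and 159 CPM with DMSO and 89.3, 83.6 and 84.5 CPM with NCP26 (log2 fold change -0.93 ± 0.09 SE, adjusted p = 1.7e-05), and UNG, a DNA repair glycosylase, had a log2 fold change of -1.18. PCNA, the replication clamp, fell (log2 fold change -0.85 ± 0.11 SE, adjusted p = 8.2e-05), and so did TTK (-0.95), KIF20A (-0.87), UBE2C (-1.04) and PTTG1 (-0.94), genes of mitosis. CCND2, a D-type cyclin, rose (log2 fold change 0.55 ± 0.11 SE, adjusted p = 0.0021), and CDK4 (-0.07, adjusted p = 0.62) and CHEK1 (0.12, adjusted p = 0.47) were not called. The 4 higher G1/S genes were 1 without DMSO replicate 1 or 2, 2 without NCP26 replicate 2 and 7 without NCP26 replicate 1.

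Plasma cell genes moved in both directions. Of the 10 markers 1 was higher and 7 lower, against 18.1% and 19.2% of all genes. JCHAIN, which joins immunoglobulin polymers, had 4458, 4795 and 4918 CPM with DMSO and 2024, 1674 and 1549 CPM with NCP26 (log2 fold change -1.43 ± 0.11 SE, adjusted p = 3.0e-06), and SDC1, the surface marker CD138, had 3604, 3539 and 3125 CPM with DMSO and 1705, 1849 and 2036 CPM with NCP26 (log2 fold change -0.88 ± 0.11 SE, adjusted p = 6.6e-05). IRF4, the transcription factor that myeloma cells depend on, had 300.3, 317 and 346 CPM with DMSO and 143, 159 and 146 CPM with NCP26 (log2 fold change -1.10 ± 0.10 SE, adjusted p = 9.3e-06). POU2AF1, a coactivator at octamer sites, had 721, 707 and 712 CPM with DMSO and 269, 245 and 282 CPM with NCP26 (log2 fold change -1.43 ± 0.10 SE, adjusted p = 9.4e-07), and PRDM1, encoding BLIMP1, fell (log2 fold change -0.77 ± 0.10 SE, adjusted p = 7.7e-05). XBP1 (0.03, adjusted p = 0.85) was not called. SLAMF7, a surface receptor, was higher, with 161, 162 and 158 CPM with DMSO and 299, 313 and 320.2 CPM with NCP26 (log2 fold change 0.96 ± 0.09 SE, adjusted p = 1.5e-05), and so was IL6ST, the gp130 signalling chain of the IL-6 receptor (log2 fold change 1.11 ± 0.11 SE, adjusted p = 1.7e-05). TNFRSF17, encoding BCMA, had 153, 164 and 166 CPM with DMSO and 135, 96.4 and 89.4 CPM with NCP26 (log2 fold change -0.60 ± 0.14 SE, adjusted p = 0.0048). Among 26 plasma cell transcription factors 10 were higher and 9 lower, and the 10 became 5 without DMSO replicate 1 or 2 and 6 without DMSO replicate 3. MAF was called (log2 fold change 1.91 ± 0.66 SE, adjusted p = 0.037), but its groups overlapped, with 5.68, 1.42 and 1.79 CPM with DMSO and 16.8, 1.88 and 16.5 CPM with NCP26, and the call was lost in 5 of 14 alternatives. TCF3 fell (log2 fold change -0.37 ± 0.09 SE, adjusted p = 0.0084), and the call was lost under the GC content offset (-0.09).

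Among MYC, PIM and network genes 3 of 17 were higher and 5 lower, against 18.1% and 19.2% of all genes. With the GC content offset 2 were higher and 3 lower. MYC, a transcription factor of growth genes that partners with MAX, had 419, 428 and 436 CPM with DMSO and 207, 204 and 196 CPM with NCP26 (log2 fold change -1.08 ± 0.09 SE, adjusted p = 6.3e-06). PIM2, a survival kinase, had 1166, 1130.5 and 1052 CPM with DMSO and 520.4, 478 and 506 CPM with NCP26 (log2 fold change -1.15 ± 0.10 SE, adjusted p = 5.2e-06), while PIM1 (-0.20, adjusted p = 0.12) was not called. Genes of translation were lower in part. In ribosome biogenesis, 2 of the 47 tested members were higher and 26 were lower, with a median log2 fold change of -0.41. GNL3 (-0.89) and PES1 (-0.85) were among the lower ones. Translation factors were higher in 5 of 43 and lower in 15 (21 without NCP26 replicate 1). EIF4G1 (-0.95), a scaffold of initiation, and EIF3B (-1.22) were lower. The 5 higher factors were 2 without DMSO replicate 1 and 3 without NCP26 replicate 2.

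Chaperone genes were lower. Among heat shock genes driven by HSF1, 1 of the 23 tested members was higher and 15 were lower, with a median log2 fold change of -0.60. Of all genes, 18.1% were higher and 19.2% lower. HSPA8, the constitutive HSC70 chaperone, had 1839, 1858 and 1709 CPM with DMSO and 479, 463 and 453 CPM with NCP26 (log2 fold change -1.95 ± 0.10 SE, adjusted p = 5.1e-08), and DNAJA1, a co-chaperone, had 159.7, 178 and 170.2 CPM with DMSO and 77.7, 78.3 and 75.9 CPM with NCP26 (log2 fold change -1.13 ± 0.10 SE, adjusted p = 4.9e-06). Both genes were separated in every library. HSPA1A (-1.10) was lower too, but 76.0% of its 31-mers are shared with other genes. In ER chaperones and unfolded protein response genes 2 of 37 were higher (6 without NCP26 replicate 1) and 18 lower. HSPA5, encoding BiP, had 1244, 1298 and 1262 CPM with DMSO and 721, 757 and 745 CPM with NCP26 (log2 fold change -0.77 ± 0.09 SE, adjusted p = 6.6e-05), DERL3 had 84.9, 74.7 and 71.3 CPM with DMSO and 31.6, 26.6 and 28.7 CPM with NCP26 (log2 fold change -1.41 ± 0.12 SE, adjusted p = 6.3e-06), and CRELD2 fell (-0.89). TRiC and prefoldin subunits, which fold actin and tubulin, were lower in 8 of 14 and higher in 0. Among tubulin genes, 0 of the 12 tested members were higher and 10 were lower, with a median log2 fold change of -1.26. TUBB had 1739, 1702 and 1557 CPM with DMSO and 672, 604 and 616 CPM with NCP26 (log2 fold change -1.40 ± 0.10 SE, adjusted p = 1.1e-06), TUBB4B had a log2 fold change of -1.55, and the actin gene ACTB fell (log2 fold change -1.16 ± 0.09 SE, adjusted p = 3.9e-06). Proteasome genes were lower in 8 of 34, near the 19.2% of all genes, and higher in 1, with PSMD2 (-0.53) lowest. The 8 became 5 without DMSO replicate 2 and 13 without NCP26 replicate 1.

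Counts of called ribosomal and mitochondrial genes changed with single libraries. Summed over 79 cytosolic ribosomal protein genes, the level was 138654, 145884 and 132653 CPM with DMSO and 150189, 103133 and 99826 CPM with NCP26, so that NCP26 replicate 1 was the highest of all 6 libraries and the other NCP26 libraries the lowest. With all libraries 8 of 79 were called lower and 0 higher, against 19.2% lower and 18.1% higher among all genes. Without NCP26 replicate 1, 4376 of all 10791 tested genes were called in either direction, 2220 of them higher. Without NCP26 replicate 1 all 79 were lower (median log2 fold change -0.43), and the count was 3 without DMSO replicate 1, DMSO replicate 2 or NCP26 replicate 2 and 5 without NCP26 replicate 3. Nuclear-encoded respiratory chain genes, which summed to 19632, 20011 and 18640.1 CPM with DMSO and 19087, 13730.3 and 14239.6 CPM with NCP26, were lower in 26 of 76. Without NCP26 replicate 1 that count was 65, and it was 16 without DMSO replicate 2 and 17 without NCP26 replicate 3. Mitochondrially encoded transcripts were lower in 6 of 13, in 13 without NCP26 replicate 1, in 3 without DMSO replicate 1 or NCP26 replicate 3, and in 2 without DMSO replicate 2 or NCP26 replicate 2. NCP26 replicate 1 also had the lowest total count and more detected genes, as given above, and their part in these differences was not tested.

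Mitochondrial ribosomal proteins were higher in 8 of 74 and lower in 17, against 18.1% and 19.2% of all genes. The higher count was 2, 3 and 5 without DMSO replicate 1, DMSO replicate 2 and NCP26 replicate 2. The lower count was 24 without NCP26 replicate 1, 8 without DMSO replicate 2 and 10 without NCP26 replicate 2 or 3. Their summed level was 5107, 5244 and 4878 CPM with DMSO and 5148, 4298 and 4349 CPM with NCP26.

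**Figure D2:**
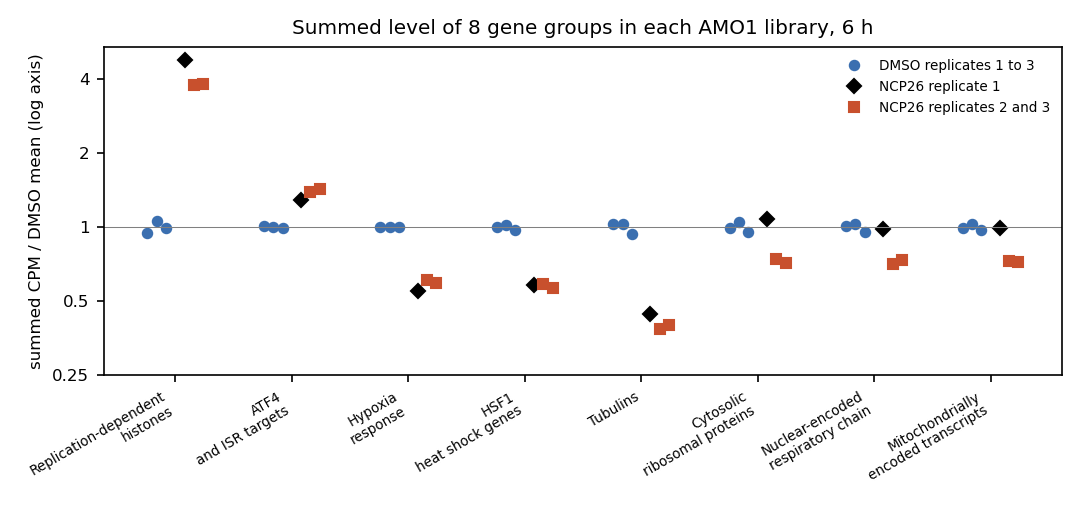
Summed CPM of 8 gene groups in each library divided by the DMSO mean, on a log axis. Circles are DMSO libraries, the black diamond is NCP26 replicate 1 and squares are NCP26 replicates 2 and 3. For the ribosomal and mitochondrial groups the diamond lies among or above the circles and the squares lie below them, and for histones, hypoxia, HSF1 and tubulins the 3 NCP26 libraries lie on the same side.

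Many lipid and sterol genes were lower. Among those of sterol and fatty acid synthesis, 1 of the 32 tested members was higher and 20 were lower (15 without NCP26 replicate 1). The median log2 fold change was -0.38. Over all genes, 18.1% were higher and 19.2% lower. FASN, the fatty acid synthase, had 504, 487 and 471 CPM with DMSO and 83.7, 128 and 145 CPM with NCP26 (log2 fold change -2.03 ± 0.16 SE, adjusted p = 2.8e-06), and INSIG1, which holds back SREBP, had 456, 514 and 550.3 CPM with DMSO and 214, 226 and 200.3 CPM with NCP26 (log2 fold change -1.25 ± 0.11 SE, adjusted p = 5.8e-06). MSMO1 (-1.25) and HMGCS1 (-1.04) fell as well. All 4 genes are induced by SREBP factors. Among oxidative stress genes driven by NRF2, 4 of the 25 tested members were higher and 15 were lower, with a median log2 fold change of -0.50, and PRDX1 (log2 fold change -1.74 ± 0.12 SE, adjusted p = 9.4e-07) and HMOX1 (-1.70) were lowest and SLC7A11 highest.

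The remaining groups held called genes in both directions, against 18.1% higher and 19.2% lower among all genes. Nonsense-mediated decay genes were higher in 7 of 15 and lower in 1, with UPF3B (0.81), SMG1 (0.79) and UPF2 (0.69) among them. SR proteins and splicing kinases were higher in 10 of 21 and lower in 6, TRA2A (1.12) and SRSF6 (0.75) being higher and SRSF2 (-0.85) and CLK3 (-0.84) lower. Autophagy and lysosome genes were higher in 8 of 34 and lower in 2, with MAP1LC3B, encoding the autophagosome protein LC3B, at 114, 116 and 139 CPM with DMSO and 271, 259 and 269.7 CPM with NCP26 (log2 fold change 1.12 ± 0.11 SE, adjusted p = 1.2e-05). mTORC1 nutrient genes were higher in 7 of 36 and lower in 6 (3 without DMSO replicate 1), shares near those of all genes, with RRAGC (0.96) and FLCN (0.80) higher. Interferon-stimulated genes were higher in 9 of 38 and lower in 5, which was 3 without DMSO replicate 1, DMSO replicate 2 or NCP26 replicate 2. Serine, glycine and one-carbon enzymes were higher in 7 of 19 and lower in 6, with CTH (1.41) and PSPH (1.08) higher and GLDC (-0.90) lower. The efflux transporter genes were higher in 1 of 7 and lower in 2, and ABCB1 was at 0.32 (adjusted p = 0.023). The ABCB1 call was lost without DMSO replicate 1, 2 or 3 and without NCP26 replicate 2 or 3. With the GC content offset it was lost as well (0.11, adjusted p = 0.39).

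Beyond the lists, the largest changes included HES1, a Notch target, at 2.67, 1.06 and 1.43 CPM with DMSO and 21.6, 12.2 and 21.1 CPM with NCP26 (log2 fold change 3.35 ± 0.37 SE, adjusted p = 3.6e-05), DUSP8, a MAP kinase phosphatase (log2 fold change 2.83 ± 0.33 SE, adjusted p = 5.6e-05), IL10RA, the IL-10 receptor (log2 fold change 2.91 ± 0.17 SE, adjusted p = 2.3e-07), and TRPM8, a cold-sensing channel (log2 fold change 2.89 ± 0.26 SE, adjusted p = 8.1e-06). HES1, DUSP8 and TRPM8 were low with DMSO and passed the count filter through their NCP26 libraries, so their direction was not independent of the filter. Identifiers that were not matched to a gene name could not be checked against the lists and may belong to one. ENSG00000196331, such an identifier, had 0.334, 0.708 and 0.358 CPM with DMSO and 16.4, 10.3 and 11.9 CPM with NCP26 (log2 fold change 4.65 ± 0.43 SE, adjusted p = 1.0e-05). ENSG00000269339, likewise unnamed, was at 0 in all 3 DMSO libraries and at 1423, 11 and 460.4 CPM in the NCP26 libraries, and its fold change is not given. ITPRIPL2 spread widely between replicates, with 31.1, 7.79 and 50.9 CPM with DMSO and 719.7, 63.9 and 304 CPM with NCP26 (log2 fold change 3.59 ± 0.70 SE, adjusted p = 0.0017). On the lower side stood TNFRSF10D, a decoy receptor (log2 fold change -2.11 ± 0.18 SE, adjusted p = 6.2e-06), and JAKMIP1 (log2 fold change -2.39 ± 0.21 SE, adjusted p = 6.4e-06). ENSG00000262621 was at 6.35, 4.25 and 32.2 CPM with DMSO and 0, 0 and 0 CPM with NCP26. ENSG00000196331, ENSG00000269339 and ENSG00000262621 also passed the count filter only through the group where they were high.

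Fold change went with base composition. Across 10511 genes with a GC content (98.5% of those tested), log2 fold change and GC content of the transcript correlated at r = -0.37 (Spearman rank correlation -0.43). Genes are not independent replicates, and no p is given. In 5 equal bins of rising GC content the median log2 fold change was 0.29, 0.16, -0.02, -0.19 and -0.27, and 33.99% of genes in the lowest bin were called higher, against 5.16% in the highest. With a GC content offset per library, the bin medians were between -0.03 and 0.01. This follows from the offset itself, which takes out the trend of each library with GC content. Over 10460 genes, percent proline in the protein correlated at -0.13 with log2 fold change and at 0.00 with the offset. The proline content itself correlated at 0.37 with GC content. The offset also takes out any proline trend that runs along with GC content, so the parts of proline and GC content were not tested. The number of Pro-Pro motifs showed a median of 0.02 in genes with 0 motifs and -0.03 in genes with 10 and more, and with the offset the order turned (-0.03 and 0.07). The plot of group medians includes those under the offset. The groups kept the sign of their median except serine, glycine and one-carbon enzymes (0.02 without and -0.00 with the offset) and MYC, PIM and network partners (-0.18 and 0.01).

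At the same dose and time, more genes were called between NCP26 and NCP22 than between NCP26 and HFG. These are 2 comparisons of compounds, each adjusted over its tested genes and not over both, and the NCP26 libraries are shared between them and the comparison with DMSO. Against NCP22, 2668 of 10783 genes were called (24.7%), 1355 higher and 1313 lower with NCP26. The number was 1595 without NCP22 replicate 1 and 1532 without NCP22 replicate 2. ATF3 differed by 2.61 (95% interval 2.29 to 2.93, adjusted p = 4.0e-07) on the log2 scale, H2BC11 by 3.22 (95% interval 2.97 to 3.47, adjusted p = 8.4e-09), CDKN1A by -2.37 (95% interval -2.56 to -2.18, adjusted p = 8.4e-09) and HILPDA by -3.37 (95% interval -3.75 to -2.99, adjusted p = 2.0e-07). DDIT3 differed by 1.60 (95% interval 1.40 to 1.80, adjusted p = 4.4e-07) and TRIB3 by 0.63 (95% interval 0.45 to 0.80, adjusted p = 2.5e-04). H2BC11 had 13.4, 17.4 and 17 CPM with NCP22 and 151, 146 and 150.4 CPM with NCP26, and HILPDA had 74.4, 82.6 and 75.8 CPM with NCP22 and 4.85, 10.02 and 7.05 CPM with NCP26. By contrast ASNS differed by -0.07 (95% interval -0.24 to 0.10, adjusted p = 0.55) and PSAT1 by -0.05 (95% interval -0.24 to 0.13, adjusted p = 0.68), which did not pass the test in either gene, and EPRS1 differed by -0.00 (95% interval -0.20 to 0.19, adjusted p = 0.98). NCP22 against DMSO gave called log2 fold changes of 1.01 for ASNS, 1.19 for PSAT1 and 0.89 for TRIB3. ATF3 (0.34) and HILPDA (-0.19) were not called in that comparison.

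Against HFG, 28 of 10749 genes were called (0.26%), 7 higher and 21 lower with NCP26. At an unadjusted p of 0.05 in the same edgeR test, 1416 genes passed against HFG and 4070 against NCP22. A gene that was not called may therefore still differ. With no filter on low counts the number was 366 and with all AMO1 libraries in one fit 375, and leaving out NCP26 replicate 1 gave 100, NCP26 replicate 2 gave 7, and HFG replicates 1, 2 and 3 gave 13, 5 and 6, so the count depends on the setting. IL16 had 43.2, 57.3 and 56 CPM with HFG and 104, 92.9 and 92.1 CPM with NCP26 and differed by 0.86 (95% interval 0.60 to 1.12, adjusted p = 0.013). ARHGDIB differed by 0.92 (95% interval 0.59 to 1.25, adjusted p = 0.033), and NR4A2 by -1.86 (95% interval -2.31 to -1.42, adjusted p = 0.005). FOSL2, with 74.6, 99.8 and 103 CPM with HFG and 24, 32.3 and 38.8 CPM with NCP26, differed by -1.55 (95% interval -1.92 to -1.17, adjusted p = 0.005), and EGR1 by -1.53 (95% interval -1.98 to -1.08, adjusted p = 0.013). Of the immediate early genes 0 of 33 were higher and 10 lower with NCP26. ATF3 differed by -0.72 (95% interval -0.94 to -0.49, adjusted p = 0.021) and JUN by -1.07 (95% interval -1.33 to -0.82, adjusted p = 0.005), while DDIT3 differed by 0.09 (95% interval -0.16 to 0.34, adjusted p = 0.76), ASNS by 0.30 (95% interval 0.12 to 0.48, adjusted p = 0.17), H2BC11 by 0.05 (95% interval -0.13 to 0.23, adjusted p = 0.83), HILPDA by 0.39 (95% interval -0.24 to 1.03, adjusted p = 0.59) and CDKN1A by 0.18 (95% interval -0.04 to 0.40, adjusted p = 0.47). LY75-CD302 was called lower with NCP26 but shares 99% of its 31-mers with other genes.

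**Figure D3:**
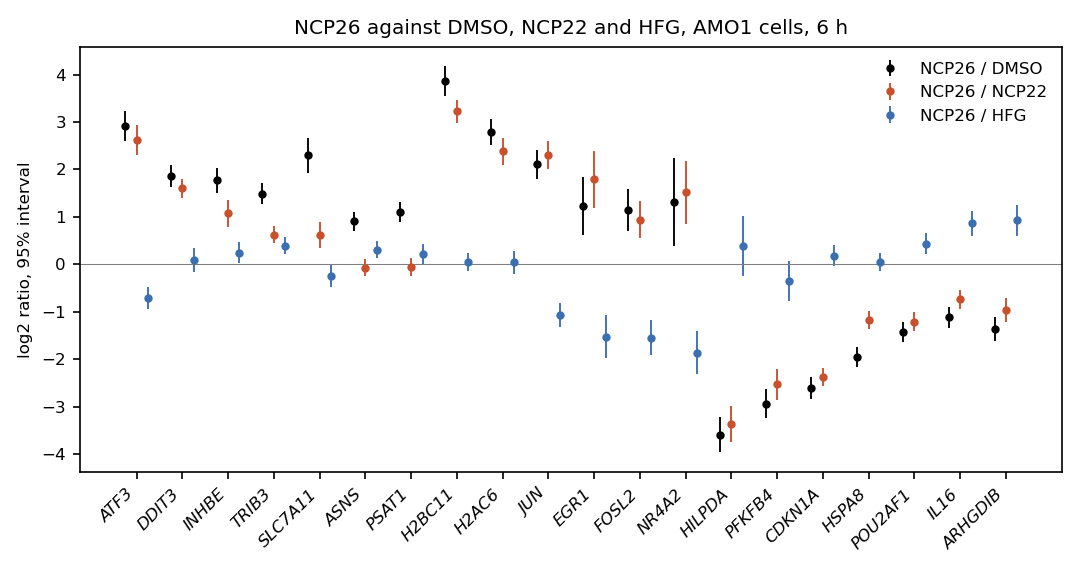
Log2 ratio of NCP26 to DMSO (black), NCP22 (orange) and HFG (blue) for 20 genes, with 95% intervals. Most black and orange values lie on the same side of 0, but the orange values of ASNS and PSAT1 lie near 0. Blue values of the ISR, histone and hypoxia genes lie nearer to 0 than the black ones, and those of ATF3, JUN, EGR1, FOSL2 and NR4A2 lie below 0.

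The response to NCP26 was compared with that in L363-CFZr cells, in which 2012 of 10701 genes were called (18.8%). The effect of NCP26 differed between the lines in 299 of 11044 genes (2.71%), 83 more positive and 216 more negative in AMO1 cells. Without L363-CFZr DMSO replicate 1 the number was 181, and without AMO1 DMSO replicate 2 it was 190. ISR targets had larger effects in L363-CFZr cells. There 35 of 39 were higher and 1 lower, with a median log2 fold change of 1.81 against 0.74 in AMO1 cells, and the difference was called for 24 of 39, each lower in AMO1 cells. ATF4 was at -0.22 in AMO1 and 0.90 in L363-CFZr cells, a difference of -1.10 ± 0.16 SE (adjusted p = 9.6e-04). TRIB3 differed by -1.58 ± 0.15 SE (adjusted p = 8.8e-06), PSAT1 by -2.17 ± 0.13 SE (adjusted p = 1.0e-07) and SESN2, which inhibits mTORC1, by -2.05 ± 0.15 SE (adjusted p = 8.4e-07). In contrast, ATF3 was at 2.92 and 2.75, a difference of 0.19 ± 0.24 SE (adjusted p = 0.77) that was not called, and DDIT3 differed by -0.14 ± 0.16 SE (adjusted p = 0.72). GDF15 had at most 3 counts over the L363-CFZr DMSO libraries, so no fold is given for it.

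Replication-dependent histones had larger effects in AMO1 cells. Of 11 tested in L363-CFZr cells 3 were higher and 0 lower, with a median of 0.50, and 8 of 14 differences were called, all higher in AMO1 cells. Over all genes, 18.8% were called in L363-CFZr cells, and 2.71% of differences were called. H2BC11 was at 0.37 in L363-CFZr cells and differed by 3.51 ± 0.31 SE (adjusted p = 5.9e-06). CDKN1A was at -2.61 in AMO1 and 1.17 in L363-CFZr cells, a difference of -3.77 ± 0.20 SE (adjusted p = 2.2e-08). MDM2 differed by -1.42 ± 0.15 SE (adjusted p = 3.9e-05), HILPDA by -1.86 ± 0.25 SE (adjusted p = 4.6e-04), JUN by 1.92 ± 0.20 SE (adjusted p = 3.3e-05) and GADD45B by 2.54 ± 0.18 SE (adjusted p = 6.6e-07). Of the p53 targets, 14 of 28 differences were called lower in AMO1 cells and 1 higher, and of the hypoxia genes 13 of 27 were called lower and 0 higher. The lines differ in origin and drug history as well as in response, and these cannot be told apart.

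**Figure D4:**
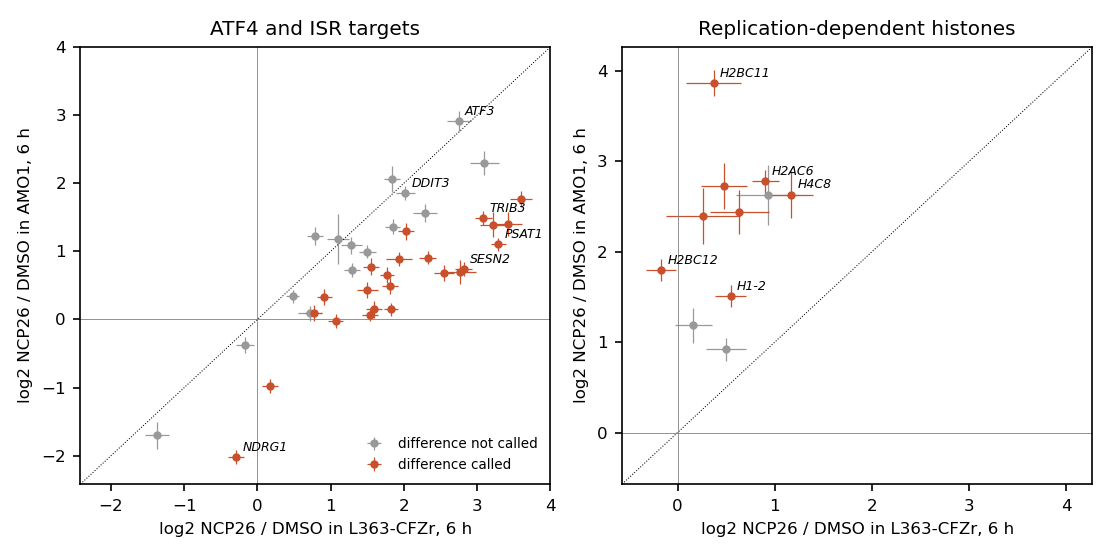
Log2 fold change with NCP26 in AMO1 (vertical) against L363-CFZr cells (horizontal) for ISR targets and replication-dependent histones, with standard errors and the line of equal effect dotted. Orange points are genes whose effect differed between the lines. ISR targets lie mostly below the line, and histones above it, and GDF15 is left out because its level was near 0 in L363-CFZr cells with DMSO.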

How the data were processed

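The authors prepared directional poly(A) libraries from RNA of cells treated for 6 h, which were frozen overnight before extraction, and assigned reads with kallisto, using 31-mers, to a transcriptome that the methods of the study place on GRCh38, whereas the submitters' processing notes name hg19. Neither the kallisto version nor its transcript annotation is given in the sources used here. The authors deposited whole-number counts of 20167 genes without normalization, and 0 columns of per-sample values were left unmatched.

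From these counts, edgeR 4.0.16 in R 4.3.3 was run on the 6 libraries alone, with filterByExpr (minimum count 10, minimum total 15), scaling by TMM and the quasi-likelihood test. P-values were adjusted by Benjamini-Hochberg across all genes tested, with calls at 0.05. Only the compared libraries entered each main fit, and the difference between cell lines was the interaction in a fit of 12 libraries. CPM are scaled by TMM. SE was taken from the fold change and its F value. An exact permutation of 3 against 3 libraries cannot go below p = 0.10. The fits of NCP26 against DMSO and of the line difference were run on simulated counts with few genes changed by known folds. These counts had no GC content trend between groups and no deviating library, so they check only the computation. Transcript GC content, length, names and positions were taken from GENCODE v44 (GRCh38), where 19299 identifiers were found. Shared 31-mers are those a gene's transcript shares with other genes. Promoters are from RefSeq GRCh38.p14, matched by symbol. Python 3.11.15, numpy 2.4.6, pandas 2.3.3 and matplotlib 3.10.9 served for tables and figures.

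Members and gene lists were chosen with earlier results of these data known. Named genes were key genes, the 12 largest changes in each direction without overlap of groups and with at least 5 CPM, up to 4 called genes in each list, the 8 largest differences in mean CPM, and the 5 largest in each direction in the other comparisons. A gene singled out beyond this rule was chosen after its values were seen. Replicate numbers were not taken to pair the libraries. Deviations of same-numbered libraries from their group means correlated at 0.033, 0.058 and -0.102, and those of differently numbered ones at -0.234 to 0.21. These values span all genes, so they cannot exclude a pairing that acts on few genes. With a replicate block in the edgeR test, the adjusted p of ITPRIPL2 went from 0.0017 to 1.5e-08. The alternatives were DESeq2 1.42.0 size factors and Wald test, no filter and a stricter filter (mean of 50 counts), all AMO1 libraries of 6 h in one fit, each library left out, a replicate block, and a GC content offset from a lowess trend (span 0.3), with transcript length added after the data were seen.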

Additional observations from a re-analysis of the deposited data

Results flagged for a closer look

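The effect of NCP26 differed between AMO1 and L363-CFZr cells by the interaction test (edgeR, Benjamini-Hochberg adjustment) in 299 of 11044 genes (2.71%). Differences of the log2 fold change, AMO1 minus L363-CFZr, are given for the key genes of the study and for the largest ones named. In favour of AMO1 cells the difference was 3.51 for H2BC11, 2.88 for HES1, 2.54 for GADD45B, 2.28 for DUSP8 and 1.92 for JUN. It was negative for ISR genes, at -1.10 for ATF4, -1.58 for TRIB3, -1.82 for INHBE, -2.06 for CHAC1, -1.40 for ASNS, -2.05 for SESN2, -1.13 for DDIT4, -0.63 for PYCR1, -1.42 for SLC7A5, -0.65 for SLC38A2, -1.31 for PHGDH, -2.17 for PSAT1, -1.66 for MTHFD2 and -0.96 for PMAIP1. It was -1.86 for HILPDA, -3.77 for CDKN1A, -1.42 for MDM2, -0.83 for BCL2L11, -0.75 for HMGCS1, -0.86 for MYC, -0.61 for PIM2, -0.78 for POU2AF1 and -0.76 for IRF4. Other genes named above were also among the 299, such as FLCN (1.01), NDRG1 (-1.71), KLF2 (-2.18), SLC2A1 (-1.50), PFKFB4 (-1.34), HK2 (-1.33), DERL3 (-1.06), BAX (-0.88) and PRDX1 (-0.81). The lines also differ in origin and resistance, and the part these play was not tested.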

How the results depend on the processing

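The number of genes called between NCP26 and DMSO stayed within 1.5 times 3975 in every alternative run. It was 3033 by the DESeq2 Wald test, 4295 with no filter, 3474 with the GC content offset, 4975 with all AMO1 libraries of 6 h in one fit, 3812 with a replicate block and 2755 to 4376 when 1 library was left out. Between NCP26 and NCP22 the count of 2668 became 1532 to 3340 with 1 library left out, the low ends being 1595 without NCP22 replicate 1 and 1532 without NCP22 replicate 2. Between NCP26 and HFG the count of 28 became 70 by the DESeq2 Wald test, 366 with no filter, 46 with the stricter filter, 5 to 100 with 1 library left out, 17 with a replicate block, 53 with the GC content offset, 144 with GC content and transcript length and 375 with all AMO1 libraries in one fit, and the cause was not tested. Single libraries that moved it past 1.5 times were HFG replicates 1 (13), 2 (5) and 3 (6) and NCP26 replicates 1 (100) and 2 (7). For the difference between cell lines the count of 299 became 539 with no filter, 181 to 404 with 1 library left out (181 without L363-CFZr DMSO replicate 1, 190 without AMO1 DMSO replicate 2), 139 with a replicate block and 823 with GC content and transcript length. Of 215 named genes 182 kept direction and side of the threshold in all alternatives run, and over all of 3193 gene and setting combinations 78 lost the call, 9 gained it and 36 turned sign. The sign turned in 10 genes, of which 0 were called with all libraries. With the GC content offset, with that offset and the replicate block, and with GC content and transcript length, in this order, the log2 fold change was 0.27, 0.268 and 0.28 for PYCR1 (called with the first and the last), 0.017, 0.024 and 0.027 for PARS2, -0.189, -0.193 and -0.199 for SLC38A2, -0.057, -0.057 and -0.059 for MTHFD2, 0.016, 0.015 and 0.037 for CDK4 and -0.067, -0.068 and -0.067 for CHEK1. With GC content and transcript length it was 0.015 for PIM1, -0.029 for BCAT1 and -0.021 for EIF2AK4, which was -0.0074 with no filter, -0.0065 with the replicate block and -0.0051 with block and GC content offset. PYCR1 was 0.030 with the stricter filter and 0.0069 with all AMO1 libraries in one fit. With 1 library left out the range was -0.237 to 0.118 for PARS2, -0.056 to 0.128 for EIF2AK4, -0.091 to 0.057 for PYCR1, -0.0040 to 0.199 for SLC38A2 and -0.00040 to 0.042 for XBP1. Libraries of 2500293 to 3183765 counts limit the precision of genes under 10 counts, and intervals cover the spread of 3 libraries a group.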
